A study of Mus musculus with 4 samples.

Results

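Glycogen is the branched glucose store of animal cells. UDP-glucose pyrophosphorylase makes the activated sugar, glycogen synthase and the branching enzyme build the polymer, and glycogen phosphorylase releases glucose-1-phosphate from it. Phosphorylase kinase, a complex of alpha, beta, gamma and calmodulin subunits, switches phosphorylase on. Most cells outside liver and muscle keep small stores, and neutrophils are a known exception among blood cells.

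The transcripts of 9 such enzymes, Pygm, Pygl, Pygb, Gys1, Gbe1, Ugp2, Phka1, Phka2 and Phkb, were examined among 23275 entries of the authors' deposited table. They were chosen by pathway with their wild-type and Hdac3-deleted levels already known, so those levels and their q-values are a description and carry no test here. All 9 were tested by the authors. RNA came from B220+CD43+ cells, an early B-lineage phenotype, sorted from bone marrow of C57BL/6 mice at 8 weeks of age. The 2 wild-type libraries were from Hdac3+/+Mb1cre+/- mice, and the 2 Hdac3-deleted libraries from Hdac3F/-Mb1cre+/- mice, which have 1 floxed and 1 null allele. Mb1-cre, carried by both genotypes, is active in B-lineage cells from their early stages on, so other sorted cells would keep the floxed allele. Each library pooled 2 mice.

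The table has 1 level per gene and genotype in FPKM, which counts fragments per kilobase of transcript and adjusts for sequencing depth, so that genes of different length can be compared. It combines the 2 libraries, so no spread between libraries can be given, and library depth is unknown. Ratios were computed from those levels, and a call is an authors' q under 0.05. Hdac3 stood at 46.8 FPKM in wild-type cells and at 47.1% of that in Hdac3-deleted cells. Since the null allele does not depend on Cre, this level does not measure how far the floxed allele was deleted. Below, paired levels are given with the wild-type value first. In sorted bulk RNA, fewer cells of a type and less RNA per cell cannot be told apart.

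Among the glycogen phosphorylases, Pygm and Pygl changed order. Pygm, the muscle phosphorylase, was at 2.05 and 11.3 FPKM, 5.53-fold higher in Hdac3-deleted cells (q = 0.0016 in the authors' deposited table). Its level was the lowest of the 9 enzymes in wild-type cells and above those of Gbe1, Pygl, Gys1 and Phka1 in Hdac3-deleted cells. There it was also just above that of Phka2, at 11.34 against 11.31 FPKM. Pygl, the liver phosphorylase, which white blood cells also use, went the other way, from 15.6 to 8.46 FPKM, 1.84-fold lower (q = 0.0016 in the authors' deposited table). Pygb, the brain phosphorylase, was the most abundant of the 3 in both genotypes, at 18.5 and 19.6 FPKM (q = 0.916 in the authors' deposited table).

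**Figure D1:**
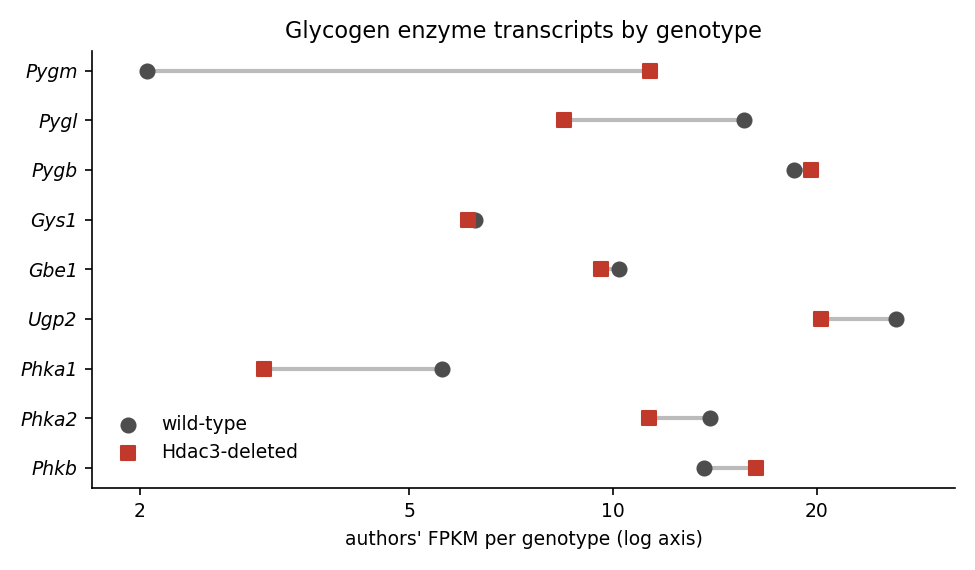
Authors' FPKM of each of the 9 enzymes (log axis) in wild-type cells (circles) and Hdac3-deleted cells (squares), 1 value per genotype. Pygm went from 2.05 to 11.3 FPKM, while Pygl and Phka1 were lower in Hdac3-deleted cells and Gys1 lay near 6 FPKM in both.

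The summed level of the phosphorylases differed little, at 36.2 and 39.4 FPKM, a ratio of 1.09. Its make-up differed more. Pygm contributed 5.67% of the sum in wild-type cells but 28.8% after Hdac3 deletion, Pygl 43.1% and 21.5%, and Pygb 51.2% and 49.8%. Pygm was 9.29 FPKM higher in Hdac3-deleted than in wild-type cells, and the Pygl level dropped by 7.13 FPKM.

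**Figure D2:**
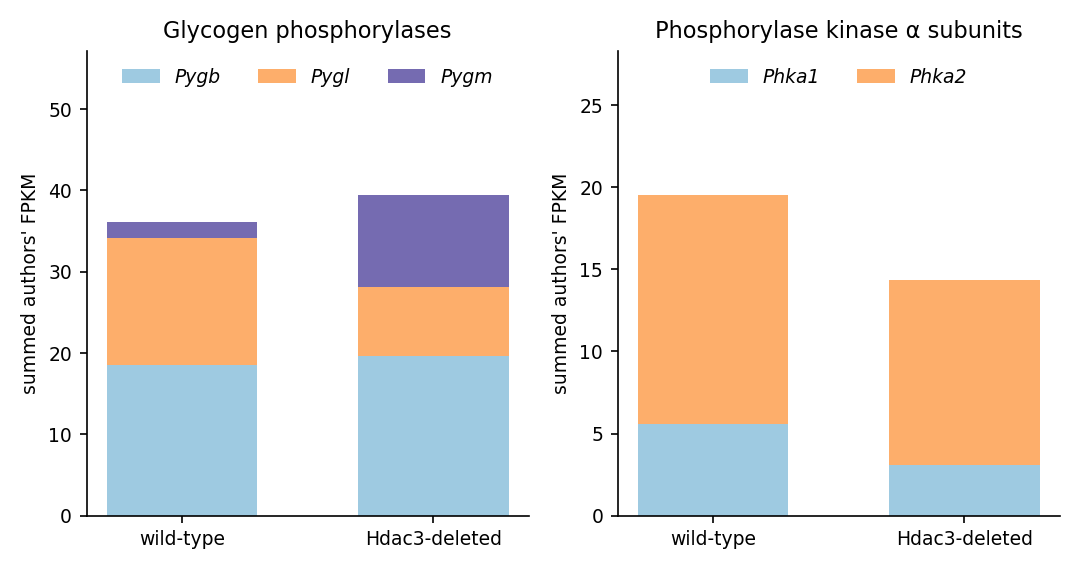
Summed authors' FPKM of the phosphorylases (left) and of the phosphorylase kinase alpha subunits (right), stacked by gene for each genotype. The phosphorylase sum was 36.2 and 39.4 FPKM with a larger Pygm part, and the alpha sum was 19.5 and 14.4 FPKM.

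The genes lie on different chromosomes, at chr19:6384429-6398459 for Pygm, chr12:70190815-70227683 for Pygl and chr2:150786796-150831748 for Pygb (mm10). No exon of another gene overlaps them in the GENCODE M21 annotation. The longest run of identical bases between annotated protein-coding transcripts was 62 for Pygm with Pygb and 29 for Pygl with either of the others. The sources used here do not give the read length.

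Among phosphorylase kinase subunits, Phka1, the alpha subunit typical of muscle, was at 5.60 and 3.05 FPKM, 1.83-fold lower (q = 0.0016 in the authors' deposited table). Phka2, the alpha subunit typical of liver, was at 13.9 and 11.3 FPKM (q = 0.463 in the authors' deposited table). Together the alpha subunits came to 19.5 and 14.4 FPKM, 1.36-fold lower, with Phka1 making up 28.7% and 21.3% of the sum. Phkb, the beta subunit, at chr8:85841002-86060642, was at 13.6 and 16.3 FPKM (q = 0.584 in the authors' deposited table). The muscle-type phosphorylase and the muscle-type alpha subunit therefore differed between genotypes in opposite directions. Both alpha genes are on the X chromosome, Phka1 at chrX:102513975-102644246 and Phka2 at chrX:160502166-160598878. Their transcripts shared at most 27 identical bases in a row, and an exon of the antisense gene Gm15243 overlaps Phka2.

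The enzymes that build glycogen showed smaller differences. Ugp2, which makes UDP-glucose, was the most abundant of the 9, at 26.2 and 20.3 FPKM (q = 0.329 in the authors' deposited table). Gys1, the glycogen synthase of tissues other than liver, was at 6.26 and 6.11 FPKM (q = 0.974 in the authors' deposited table). Gbe1, the branching enzyme, was at 10.2 and 9.62 FPKM (q = 0.922 in the authors' deposited table). No call was made for any of these 3 genes, and their log2 ratios of Hdac3-deleted to wild-type levels lay between -0.36 and -0.04. Exons of Gys1 overlap those of the opposite-strand gene Ruvbl2, at 48.4 and 39.95 FPKM, and exons of Ugp2 those of Gm12043. Ugp2 shares its deposited locus, chr11:21321141-21370879, with the microRNA gene Mir1933, so its value is less certain. Gys1 lies at chr7:45434839-45456617 and Gbe1 at chr16:70314087-70569716. The sources used here do not say whether strand was kept.

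Of the 9 enzymes 3 were called, 1 higher and 2 lower, against 6.95% of the table's 12683 tested entries. The members were selected on this contrast, so nothing is read from that share. The median log2 ratio of the 9 was -0.09 and that of all tested entries 0.03. Pygm lay at percentile 99.7 of the log2 ratios of all tested entries, Pygl at 4.43 and Phka1 at 4.51.

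**Figure D3:**
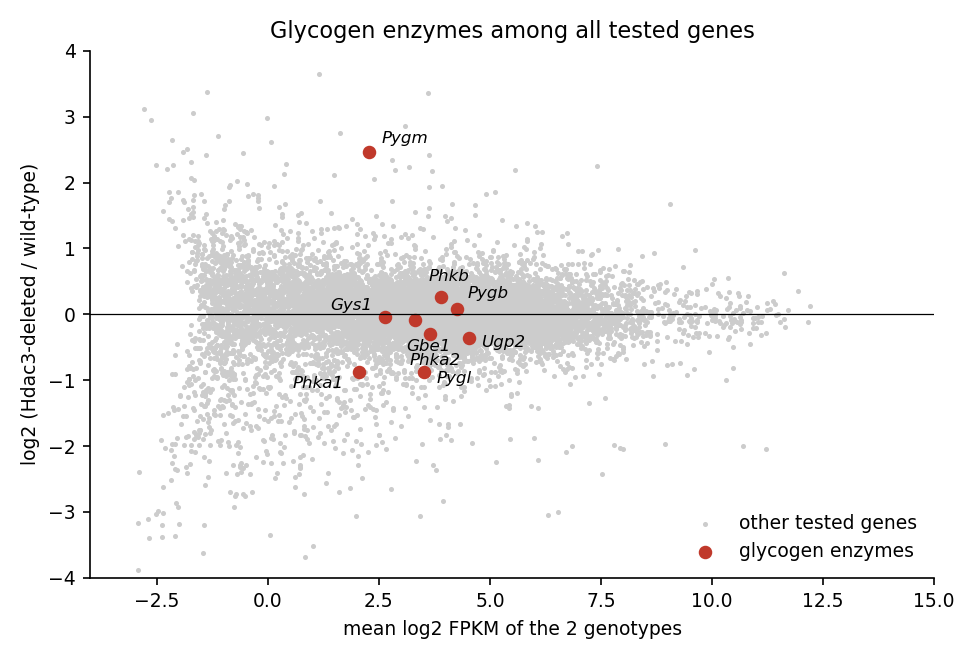
Log2 ratio of Hdac3-deleted to wild-type FPKM against the mean log2 FPKM of both genotypes, with tested genes in grey and the 9 enzymes in red; 12 genes beyond the axis limits and 40 at 0 in a genotype are not drawn. Pygm lies above the bulk of genes of its level, and Gys1, Gbe1, Pygb, Phkb, Phka2 and Ugp2 lie within the grey band.

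The upstream sequences of Pygm and Phka1 are shown because these muscle-type genes differed in opposite directions. They come from RefSeq (GRCm38.p6, the assembly of mm10), in which all 9 genes had a match, and run 5′ to 3′ on the plus strand for Pygm (chr19:6384158-6384398) and on the minus strand for Phka1 (chrX:102644247-102644496). Both were cut before the first annotated exon base, and capitals mark matches to the motifs searched. The window of Pygl is not shown because its 5′ end already lies in an annotated exon, so that nothing was left after the same cut.
Pygm: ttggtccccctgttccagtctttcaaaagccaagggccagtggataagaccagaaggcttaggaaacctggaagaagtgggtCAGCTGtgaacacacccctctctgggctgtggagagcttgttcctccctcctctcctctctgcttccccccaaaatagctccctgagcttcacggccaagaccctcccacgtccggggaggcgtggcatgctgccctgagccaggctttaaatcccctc
Phka1: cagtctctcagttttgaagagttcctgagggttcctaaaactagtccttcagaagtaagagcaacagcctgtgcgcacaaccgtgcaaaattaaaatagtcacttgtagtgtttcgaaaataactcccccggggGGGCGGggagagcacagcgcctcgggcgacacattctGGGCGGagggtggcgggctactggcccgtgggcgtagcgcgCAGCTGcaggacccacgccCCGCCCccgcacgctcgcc

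Both strands were searched for the E-boxes CAGCTG and CACGTG, the GC box GGGCGG and the nuclear receptor half-site AGGTCA, none of which overlaps another match here. Pygm held 1 CAGCTG and none of the others in 241 bases. Phka1 held 1 CAGCTG and 3 GC boxes in 250 bases, and neither CACGTG nor AGGTCA. Of 32851 promoter windows cut to 241 bases, 12.5% held CAGCTG, 5.73% CACGTG, 31.4% GGGCGG and 13.6% AGGTCA. At 250 bases the shares were 13.0%, 6.02%, 32.7% and 14.0%. Unlike the sequences shown, these windows were not cut before annotated exons, and a gene can have more than 1 window. The motifs were picked with the sequences in view, and a match is no evidence of binding.

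The nearest tested gene on each side of the 9 enzymes was compared, since the choice of members did not use it. Their distances ran from 7 to 4970797 bases, and 8 of 18 lay within 10000 bases. Of 18 flanking tested genes 1 was called, Rasgrp2, which was higher. Among all tested entries 6.95% were called in either direction and 2.81% were called higher. Rasgrp2, an exchange factor that activates the small GTPase Rap1, starts 2123 bases beyond the end of Pygm. It rose 1.69-fold from 88.4 to 150 FPKM (q = 0.0041 in the authors' deposited table), a smaller ratio on a level many times that of Pygm. On the other side of Pygm the splicing factor gene Sf1, 6390 bases away, was at 111 and 140 FPKM (the authors' deposited table gives q = 0.472). Whether transcription of Rasgrp2 bears on the Pygm level was not tested. The other 16 flanking genes were not called.

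**Figure D4:**
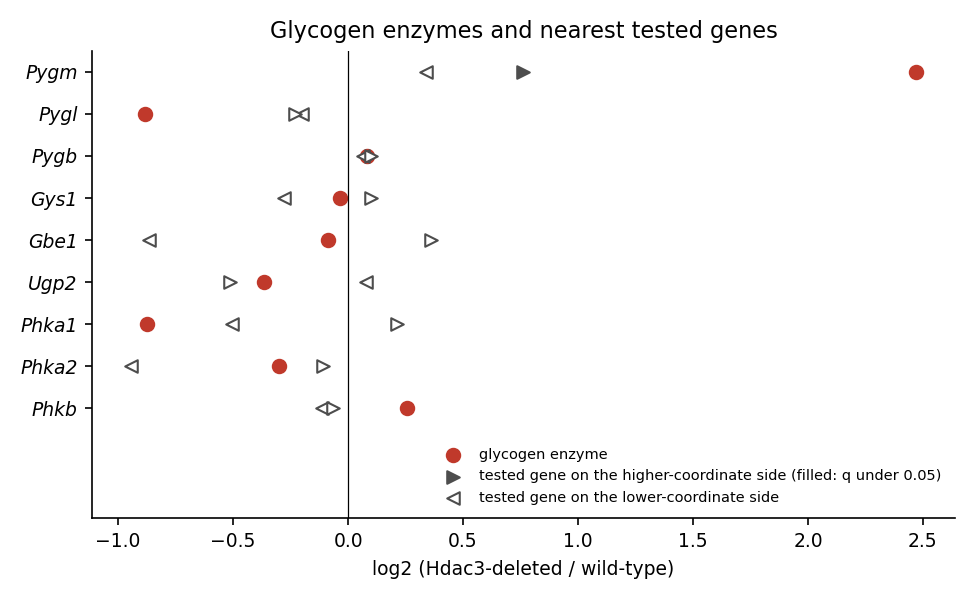
Log2 ratio of Hdac3-deleted to wild-type FPKM for each of the 9 enzymes (red circles) and for the nearest tested gene on each side (triangles, filled where the authors' q was under 0.05). Rasgrp2, at 0.76 beside Pygm at 2.47, is the 1 filled triangle.

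Other genes of the pathway were called at a share near that of all tested entries. A list of 63 other genes of glycogen and glucose handling included 50 that the authors tested, of which 3 were called lower and 0 higher. Without regard to calls, 25 were higher and 25 lower in Hdac3-deleted cells. The share called in either direction was 6.00%, against 6.95% of all tested entries. Because all calls were lower, the share called lower was also 6.00%, against 4.14%. The median log2 ratio was 0.00 against 0.03. Hk3, a hexokinase of myeloid cells, fell 2.72-fold from 6.00 to 2.20 FPKM (q = 0.0016 in the authors' deposited table). Ppp1r3d, a subunit that brings protein phosphatase 1 to glycogen, fell 2.32-fold from 1.14 to 0.493 FPKM (q = 0.0193 in the authors' deposited table). Pgm2l1, which makes glucose-1,6-bisphosphate, the cofactor of phosphoglucomutase, fell 1.48-fold from 13.2 to 8.93 FPKM (q = 0.0472 in the authors' deposited table). With the threshold at 0.01 only Hk3 of these 3 was called. Hk3 and Pgm2l1 share their deposited locus with another entry, Unc5a and Gpx2-ps1 respectively, so their values are less certain.

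Other tested genes that make or break down glycogen, and the remaining tested subunits of phosphorylase kinase, were not called. Gaa, the lysosomal glucosidase, was at 10.98 and 14.9 FPKM. Gyg, the primer protein glycogenin, was at 26.6 and 19.6 FPKM. The gamma subunit of phosphorylase kinase came mainly from Phkg2, named to complete the kinase, at 15.3 and 17.0 FPKM. Calm2, a gene for its calmodulin subunit, was at 567 and 538 FPKM. Gys2, the liver synthase, was listed at 0.0071 and 0 FPKM, without a test.

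The regulators of the pathway were not called either, apart from Ppp1r3d. Gsk3a and Gsk3b, the kinases that switch glycogen synthase off, were at 42.9 and 38.2 FPKM and at 15.9 and 14.8 FPKM. The 6 tested protein kinase A subunits, led by Prkar1a and Prkacb, had log2 ratios from -0.14 to 0.24, and the 5 tested AMP-activated kinase subunits, led by Prkag1 and Prkag2, from -0.01 to 0.20. The 7 tested genes of UDP-glucose and galactose handling lay between -0.51 and 0.33. Among them were Ugcg, which makes glucosylceramide from UDP-glucose, at 63.9 and 73.0 FPKM, and the galactokinase gene Galk1, at 36.2 and 25.4 FPKM.

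**Figure D5:**
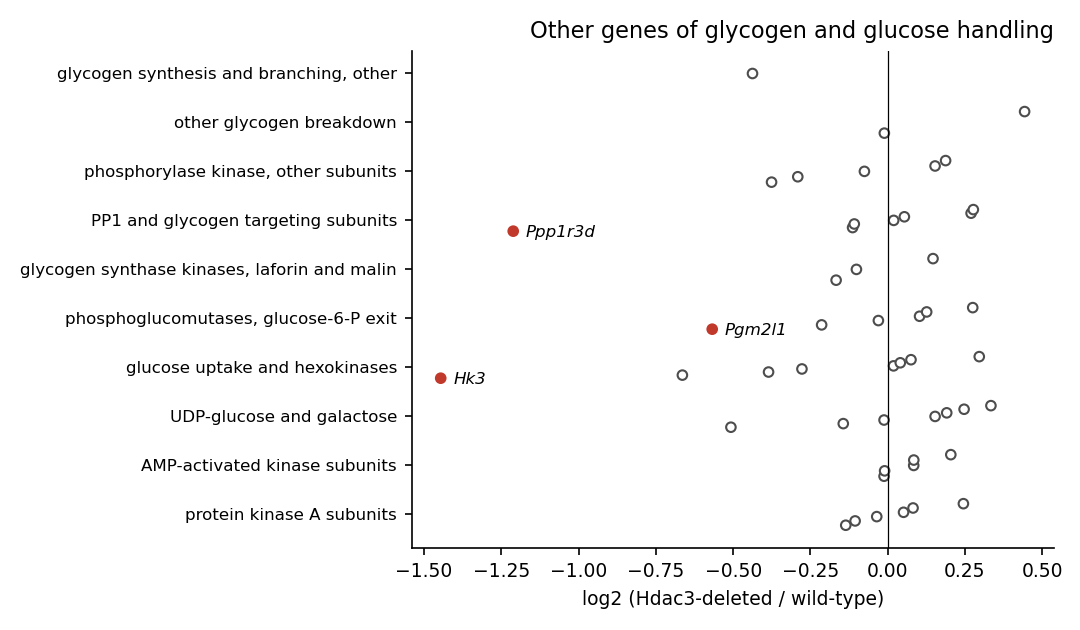
Log2 ratio of Hdac3-deleted to wild-type FPKM for the 50 tested genes of the other pathway lists, 1 row per list, with genes at an authors' q under 0.05 filled and named (PP1, protein phosphatase 1; glucose-6-P, glucose-6-phosphate). Hk3, Ppp1r3d and Pgm2l1, at -1.45, -1.21 and -0.57, are the filled points.

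Levels of cell type markers were also compared between the genotypes. Their lists were chosen with earlier results of these data known, so nothing is read from the shares called. Of 14 neutrophil markers 13 were called lower, against 4.14% of all tested entries. The log2 ratios of the 14 ran from -2.10 to -0.98, and their summed level was 10651 and 2639 FPKM, a 4.04-fold difference. Ltf fell from 218 to 50.9 FPKM, S100a8 from 4815 to 1172 FPKM, Camp from 495 to 122 FPKM and S100a9 from 3333 to 831 FPKM. Pygl and Hk3 were lower in the same samples, by 1.84-fold and 2.72-fold, and the part of neutrophil RNA in their values was not tested. None of the 14 neutrophil markers was at 0.

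Most skeletal muscle markers were low in both genotypes. Of 16 such markers, 12 were under 1 FPKM in both genotypes and 4 of these, Myh1, Myh2, Mb and Des, were listed at 0 in both. None of the 4 tested was called, against 6.95% of all tested entries. The summed level of the 16 was 30.4 and 39.2 FPKM. It came mostly from Tnni2, at 12.4 and 16.2 FPKM, and from Mylpf, at 8.28 and 10.1 FPKM. Atp2a1, named after its values were seen, added 7.42 and 10.4 FPKM.

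Early B-lineage markers were present in both genotypes, and 6 of 11 were called higher, against 2.81% of all tested entries. At a q threshold of 0.01, 3 were called higher. This list too was chosen with earlier results known, so nothing is read from that share. Without regard to calls all 11 were higher, as were 6779 of all 12683 tested entries. The summed level of the 11 was 2220 and 3638 FPKM, 1.64-fold higher. Rag1 rose from 77.8 to 372 FPKM, Rag2 from 35.5 to 92.3 FPKM, Dntt from 298 to 569 FPKM and Vpreb1 from 208 to 327 FPKM. No early B-lineage marker was at 0. Of 8 genes listed as plasmacytoid dendritic cell markers none was called, against 6.95% of all tested entries. All 8 were higher without regard to calls. Their sum was 2392 and 3096 FPKM, led by Ly6d and Bst2. Which cells in the sort these transcripts came from was not tested. The part of either cell type in the Pygm level was not tested.

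The genes whose levels in the 2 genotypes were most like those of Pygm, by straight-line distance between log2 FPKM values over these 2 points, were BC048943 at a distance of 0.33, Parvb at 0.72, Cish at 0.76 and Prelid2 at 0.85. BC048943 went from 2.56 to 10.6 FPKM and Cish, a feedback inhibitor of cytokine receptors, from 3.10 to 15.7 FPKM. With only 2 points this likeness describes level and ratio alone.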

How the data were processed

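Polyadenylated RNA of 4 libraries, 2 per genotype, was measured, with groups taken from the sample titles. Per the submitters' processing notes, Trimmomatic 0.32, TopHat2 2.0.11 and Cuffdiff 2.1.1 were used on mm10. The sources used here name no options, annotation or scaling method. Per the file headers, the deposited values are 1 FPKM level for every gene in either genotype, with the authors' p-value and q-value. Adjusting the p-values of the 12683 tested entries by Benjamini-Hochberg gave the q-values to within 5.27e-07. The smallest p-value, 5e-05, is shared by 396 entries, all at q = 0.0016. No model was refitted, since no values per library were used, and no precision from depth can be given. p-values rest on 2 pooled libraries per genotype.

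Members and lists were chosen with earlier results of these data known. Named were the 9 enzymes and Hdac3, called genes of each pathway list or else its 2 most abundant tested genes, up to 4 called markers per list (by q, then fold) or else the 2 most abundant, called neighbours and both neighbours of Pygm, and the 4 genes nearest to Pygm. Of the genes this rule names, 2 are not reported here. Deposited starts were shifted to count from 1. Counts and medians were tested on simulated data. Python 3.11.15, pandas 2.3.3, numpy 2.4.6, statsmodels 0.14.6 and matplotlib 3.10.9 were used. Alternatives varied the q threshold, a minimum level, shared loci, a pseudocount and centring.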

Additional observations from a re-analysis of the deposited data

How the results depend on the processing

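With pseudocounts of 1 and 0.1 FPKM and after centring on the median tested entry, all 27 recomputed log2 ratios of the 9 enzymes had the same sign and moved by less than 1.5-fold. That of Pygm was 2.02 with a pseudocount of 1 FPKM. Of the other pathway genes, 3 were called lower at a q threshold of 0.05 and 1 at 0.01, and 1 when entries sharing a locus were left out, namely Ppp1r3d. Early B-lineage markers called higher went from 6 to 3 at 0.01, and plasmacytoid dendritic cell markers called higher from 0 to 1 at 0.1. Other counts of calls stayed within 1.5 times. Leaving out a library was not run, since each level combines both. No paired analysis was possible because the columns are per genotype and carry no replicate number. Library depth is unknown, so genes under 1 FPKM, such as Gys2, have no stated precision.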

Other observations

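Hexokinase transcripts, which supply the glucose-6-phosphate from which glycogen is made, also differed in make-up. Hk1, the widely expressed form, was at 13.9 FPKM in wild-type cells against 14.1 FPKM after Hdac3 deletion and made up 60.9% and 77.7% of the summed Hk1, Hk2 and Hk3 level. Hk2, an inducible form, was at 2.91 and 1.83 FPKM, with q = 0.058 in the authors' deposited table. Hk3 made up 26.3% and 12.2% of that sum, which was 22.8 and 18.1 FPKM. The Hk3 value is less certain, since its deposited locus is shared with Unc5a. Neutrophil markers were lower in the same samples, and the part of neutrophil RNA in the Hk3 level was not tested. Hk1, Hk2 and Hk3 were put together after their values were seen.

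Glycogen-targeting subunits of protein phosphatase 1 were scarce in both genotypes. Ppp1r3b was at 2.24 and 2.70 FPKM and Ppp1r3e at 2.89 and 2.93 FPKM, while Ppp1r3a and Ppp1r3g were listed at 0 in both. The catalytic subunit Ppp1ca was at 387 and 358 FPKM. Of the liver glucose-6-phosphatase G6pc nothing was recorded above 0, whereas the widely expressed G6pc3 was at 13.01 and 15.7 FPKM.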
